A study of Mus musculus with 6 samples.

Results

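Retinoic acid is made from vitamin A inside cells, acts on nuclear receptors and is then broken down. The genes described here are the 9 mouse genes Rdh10, Aldh1a1, Aldh1a2, Aldh1a3, Crabp2, Rara, Rarb, Rarg and Cyp26b1, out of 56941 gene IDs counted. They were listed by name for their roles and found in the table through their Ensembl IDs, and each name matched 1 ID. The data are RNA-seq counts from lung cells of mouse pups, selected for CD31 with magnetic beads, in 2 groups of 3 libraries. The hyperoxia pups were kept in 75% oxygen, and the room air pups in 21% oxygen, from postnatal day 0 until their lungs were taken on day 7. The sources used here do not give the strain or sex of the pups, nor say whether a library came from 1 animal or from pooled animals. P-values therefore measure the spread between these libraries.

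As background, retinol is first oxidised to retinal, a reversible step in which RDH10 is a main enzyme. The ALDH1A enzymes then oxidise retinal to retinoic acid, which is not reversible. Retinoic acid binds the receptors RAR alpha, beta and gamma, which sit on DNA together with a retinoid X receptor (RXR), and CYP26 enzymes of the cytochrome P450 family remove it. In the lung, retinoic acid signalling is needed for the formation of the lung bud and takes part in the formation of alveoli, which in mice begins after birth.

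The libraries held 39379793 to 42343192 counts each. The 14 pan-endothelial marker genes summed to 12131 to 16606 CPM (counts scaled to a common library size) in hyperoxia and 14457 to 19878 CPM in room air, and all 14 were detected. Pecam1, the gene of CD31, was at 1932 to 2649 CPM in hyperoxia and 2269 to 3109 CPM in room air. Markers of other lung cells were abundant too. The 10 alveolar type 2 markers summed to 14079 to 17113 CPM in hyperoxia and 12764 to 19993 CPM in room air. Most of that sum was Sftpc, at 8652 to 10875 CPM in hyperoxia and 7650.4 to 12969.8 CPM in room air. Sums of different lists are not scaled by exon length, so they do not give the shares of the cell types. Hyperoxia 2 and room air 3 stood apart from their groups and had the lowest pan-endothelial sums in them. Reads from Y-linked genes were at 157 CPM in hyperoxia 2 and at 129 to 162 CPM in the room air libraries, but at 0.0472 and 0 CPM in hyperoxia 1 and 3. The sex of the pups was thus partly confounded with oxygen. In every difference between the groups given here, the 2 cannot be fully told apart. Results that hinge on hyperoxia 2 are given with and without it.

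Hyperoxia libraries held more RNA of Aldh1a1, the first of the retinal dehydrogenase genes, and less of Rara, the receptor gene for RAR alpha. Aldh1a1 was 3.67-fold higher. Rara was 1.46-fold lower, a call that did not survive the loss of most single libraries. Cyp26b1, the breakdown enzyme gene, averaged 54.9 CPM in hyperoxia and 109 CPM in room air, with groups that did not overlap, but it did not pass the test. Of the 9 genes, 8 had enough counts to be tested, and of these 1 was called higher, 1 lower and 6 were not called. Across all 17072 genes tested, 6.77% were called higher and 4.41% lower, and 11.2% in either direction. By groups that did not overlap, 4 of the 8 separated, as did 30.9% of all genes tested. A gene was called at an adjusted p below 0.05 in edgeR's quasi-likelihood test, with Benjamini-Hochberg adjustment over all genes tested, and every adjusted p given for a gene comes from edgeR.

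**Figure D1:**
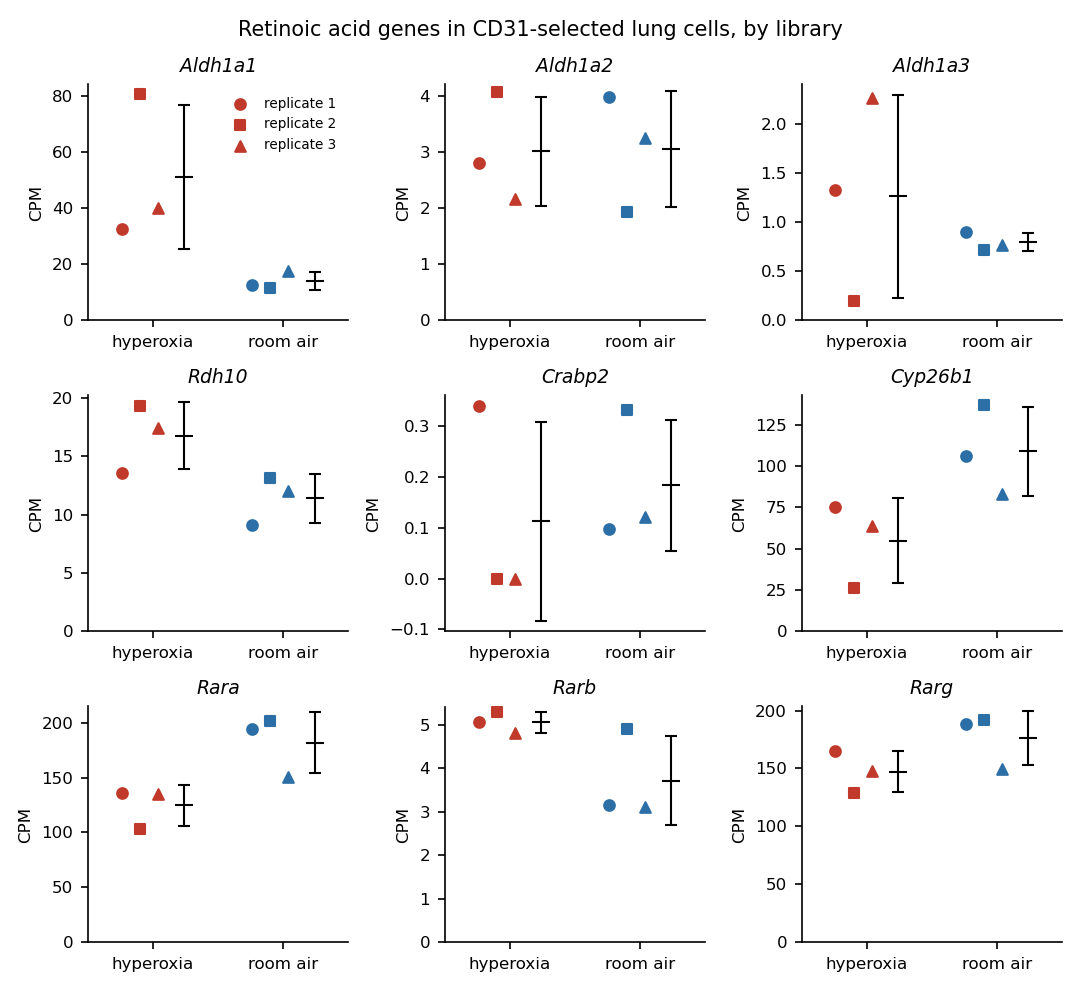
Level of each gene in CPM (vertical axis, a scale of its own in each panel) in every library, hyperoxia in red and room air in blue, with the group mean and SD beside the points (n = 3 each). The 3 hyperoxia libraries lie above all room air libraries for Aldh1a1 and Rdh10 and below them for Cyp26b1 and Rara; the other 5 genes overlap.

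Rdh10 (ENSMUSG00000025921, chromosome 1) encodes the retinol dehydrogenase that starts the synthesis. Its levels were 13.6, 19.3 and 17.4 CPM in hyperoxia, against 9.07, 13.1 and 12 CPM in room air. The lowest hyperoxia library stood just above the highest room air library. Rdh10 averaged 16.8 ± 2.91 CPM in hyperoxia and 11.4 ± 2.07 CPM in room air (SD, n = 3 each), and the difference did not pass (log2 fold change 0.56, SE 0.19, adjusted p = 0.0916). Its 95% limits ran from a 1.1-fold to a 1.98-fold higher level.

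Of the ALDH1A genes, Aldh1a1 (ENSMUSG00000053279, chromosome 19) was the one called. It had 32.7, 80.5 and 40 CPM in hyperoxia, against 12.5, 11.7 and 17.6 CPM in room air. Every hyperoxia library was above every room air library, and hyperoxia 2 was far above the other hyperoxia libraries. The group levels were 51.1 ± 25.7 CPM in hyperoxia and 13.9 ± 3.2 CPM in room air (SD, n = 3 each; log2 fold change 1.87, SE 0.31, adjusted p = 0.00402). The gene was also called without hyperoxia 2 (log2 fold change 1.39, SE 0.19, adjusted p = 0.0012), and under all 16 alternatives tried. In bulk RNA, a larger share of cells that express a gene and more RNA per cell cannot be told apart.

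Aldh1a2 (ENSMUSG00000013584, chromosome 9), the dehydrogenase gene best known from the embryo and from mesothelium, was low and did not separate the groups. It had 2.81, 4.08 and 2.16 CPM in hyperoxia and 3.99, 1.94 and 3.26 CPM in room air (log2 fold change -0.02, SE 0.35, adjusted p = 0.976). The 95% limits, 0.572-fold to 1.69-fold, leave room for a moderate change either way. Aldh1a3 (ENSMUSG00000015134, chromosome 7), the third of these dehydrogenase genes, had 55, 8 and 89 counts in hyperoxia, which are 1.33, 0.198 and 2.26 CPM. In room air it had 37, 28 and 32 counts, or 0.895, 0.714 and 0.772 CPM. Its log2 fold change was 0.67 (SE 0.70, adjusted p = 0.606). Without hyperoxia 2 it was 1.18 (SE 0.42, adjusted p = 0.126), and without hyperoxia 3 it was -0.06 (SE 0.79, adjusted p = 0.977), so its direction is not settled. The hyperoxia libraries lay on both sides of the room air libraries, with hyperoxia 2 the lowest of all.

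Levels of different genes are compared here only per kilobase of exon (CPM per kb, with exon lengths from GENCODE M21). On that scale Aldh1a1 made up 81.3%, 89.8% and 84.9% of the summed ALDH1A level in the hyperoxia libraries, and 56.4%, 70.1% and 68.9% in the room air libraries. Aldh1a2 made up 15.2%, 9.92% and 9.98% in hyperoxia, against 39.3%, 25.4% and 27.8% in room air. Aldh1a1 was thus the leading ALDH1A gene in all 6 libraries, and its shares did not overlap between the groups. The sum itself was 8.16, 18.1 and 9.55 CPM per kb in hyperoxia and 4.49, 3.38 and 5.17 CPM per kb in room air.

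Aldh1a7, a close copy of Aldh1a1 that lies on the same chromosome (19), bears on how far the Aldh1a1 counts can be trusted. Of the 4934 stretches of 50 bases in Aldh1a1 transcripts, 151 (3.06%) also occurred in Aldh1a7 transcripts, so few reads could be assigned to either gene. Aldh1a7 had 21.9, 28.1 and 21.5 CPM in hyperoxia and 22.4, 20.9 and 37.4 CPM in room air, and it was not called (log2 fold change -0.17, SE 0.21, adjusted p = 0.668).

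**Figure D2:**
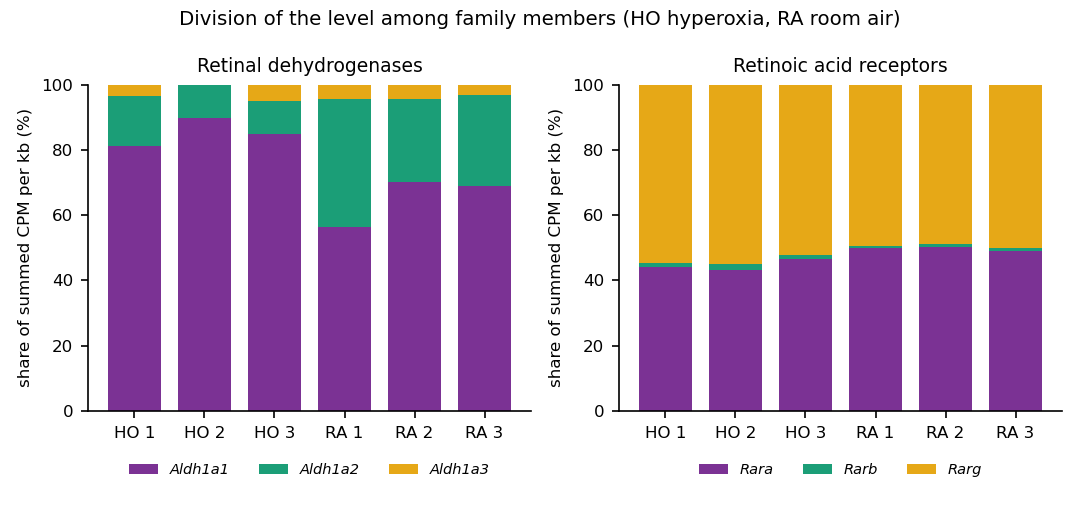
Share of each family member (vertical axis, % of the summed CPM per kb) in each library, for the retinal dehydrogenases (left) and the retinoic acid receptors (right). Aldh1a1 takes 81.3% to 89.8% of the dehydrogenase level in hyperoxia and 56.4% to 70.1% in room air, while Rara and Rarg share nearly all of the receptor level in every library.

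Crabp2 (ENSMUSG00000004885, chromosome 3) encodes a protein that carries retinoic acid to its receptors. It was close to absent, with 14, 0 and 0 counts in hyperoxia and 4, 13 and 5 counts in room air. It was below the filter on low counts and was not tested. A count of 0 allows up to 3 counts, so no fold change can be given.

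Rara and Rarg were the most abundant of the 9 genes per kilobase. Rara (ENSMUSG00000037992, chromosome 11) had 136, 103 and 135 CPM in hyperoxia, against 194, 201 and 150.1 CPM in room air. Hyperoxia 2 was the lowest library and room air 3 the lowest of its group, and the groups did not overlap. Rara averaged 125 ± 18.5 CPM in hyperoxia and 182 ± 27.7 CPM in room air (SD, n = 3 each; log2 fold change -0.54, SE 0.15, adjusted p = 0.0399). Left out one at a time, hyperoxia 1, 2 and 3 gave adjusted p-values of 0.0621, 0.119 and 0.076, and room air 1 and 2 gave 0.114 and 0.144. In these fits the log2 fold change was -0.61, -0.42, -0.61, -0.50 and -0.46, in the same order. The call held without room air 3 (log2 fold change -0.67, adjusted p = 0.00956). It also held when room air 3 and hyperoxia 2 were both left out (-0.56, adjusted p = 0.00644). That alternative was chosen after seeing the data and drops the lowest Rara library of each group, so it is no independent check of the call.

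Rarg (ENSMUSG00000001288, chromosome 15), the gene for RAR gamma, had 165, 129 and 148 CPM in hyperoxia and 188, 192 and 149.7 CPM in room air. Room air 3 lay within the hyperoxia range. Its log2 fold change of -0.26 (SE 0.13, adjusted p = 0.263) did not pass, with 95% limits from 0.68-fold to 1.03-fold. The ratio of Rara to Rarg within a library, which no scaling between libraries can move, was 0.807, 0.781 and 0.89 in hyperoxia and 1.01, 1.02 and 0.979 in room air (CPM per kb). The ratio was below 1 in all 3 hyperoxia libraries and within 0.979 to 1.02 in room air.

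Rarb (ENSMUSG00000017491, chromosome 14), the gene for RAR beta, is itself a classical target of retinoic acid, through a response element just upstream of its start. The element is a DR5 repeat, in which 2 receptor-binding hexamers follow each other in the same direction with 5 bases between. The hexamers searched were AGGTCA and AGTTCA, and likewise GGGTCA and GGTTCA, on both strands. Promoter sequences from RefSeq (GRCm38.p6), reaching from 250 bases before a start to 50 bases after it, covered 6 of the 9 genes in 11 windows. The Rarb window was the only 1 of the 11 with a DR5 repeat on either strand, and 32 of all 32851 promoter windows (0.0974%) held one. The 250 bases before the start are shown for Rarb, whose repeat is in capitals, and for 1 of the 2 windows of Aldh1a1, the gene with the largest log2 fold change of the 8, whose single hexamer, read on the other strand, is in capitals:
Rarb, chr14:16575477-16575726, minus strand: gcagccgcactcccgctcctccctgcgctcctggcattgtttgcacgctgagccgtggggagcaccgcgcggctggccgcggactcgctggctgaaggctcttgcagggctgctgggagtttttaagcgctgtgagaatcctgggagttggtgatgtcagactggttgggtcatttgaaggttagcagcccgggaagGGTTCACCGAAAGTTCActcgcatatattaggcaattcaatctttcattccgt
Aldh1a1, chr19:20601718-20601967, plus strand: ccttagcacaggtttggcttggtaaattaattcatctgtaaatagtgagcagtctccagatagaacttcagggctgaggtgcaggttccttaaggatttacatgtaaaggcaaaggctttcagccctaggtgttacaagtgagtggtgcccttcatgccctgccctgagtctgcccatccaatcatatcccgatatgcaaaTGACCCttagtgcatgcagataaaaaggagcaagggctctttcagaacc
The Rarb repeat lies 53 to 37 bases before the start. A lone hexamer is common: 43.7% of all windows held at least 1, and so did 5 of the 11 windows of these genes. The search found no repeat with a spacing of 1 or 2 bases in the 11 windows (0.222% and 0.268% of all windows held one). A match describes the letters only.

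At the Rarb gene itself the RNA level was low. It had 5.06, 5.29 and 4.82 CPM in hyperoxia and 3.15, 4.9 and 3.11 CPM in room air. The hyperoxia libraries lay close together, and room air 2 fell among them. The log2 fold change was 0.44 (SE 0.26, adjusted p = 0.328), with 95% limits from 0.914-fold to 2.03-fold. In the GENCODE M21 annotation, 38.4% of the exon bases of Rarb overlap other genes on the opposite strand. Of the 50-base stretches in Rarb transcripts, 34.1% also occur in transcripts of Top2b or Gm48162. Top2b, a topoisomerase gene, was at 175 to 191 CPM in hyperoxia and 203 to 209 CPM in room air. Whether the counting used strand is not stated in the sources used here, so the Rarb level is uncertain.

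Cyp26b1 (ENSMUSG00000063415, chromosome 6) encodes the retinoic acid hydroxylase that was abundant in these libraries, whereas the related Cyp26a1 and Cyp26c1 were too low to test. Cyp26b1 had 75, 26.1 and 63.5 CPM in hyperoxia, against 106, 137 and 83.2 CPM in room air. All hyperoxia libraries were below all room air libraries, and hyperoxia 2 was far below the other hyperoxia libraries. The means were 54.9 ± 25.5 CPM in hyperoxia and 109 ± 27.2 CPM in room air (SD, n = 3 each; log2 fold change -0.99, SE 0.34, adjusted p = 0.0983). The 95% limits ran from 0.298-fold to 0.853-fold. Without hyperoxia 2 the log2 fold change was -0.65 (SE 0.19, adjusted p = 0.0625). Cyp26b1 passed the test in 2 of the 16 alternatives. Without hyperoxia 2 and room air 3 together, an alternative chosen after seeing the data, its log2 fold change was -0.83 (SE 0.15, adjusted p = 0.00656). With the presence of Y-linked reads as a term it was -2.06 (SE 0.27, adjusted p = 0.00112). Since hyperoxia 2 is the only hyperoxia library with such reads and all room air libraries have them, that fit sets hyperoxia 2 against room air.

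Set against each other per kilobase, Aldh1a1 over Cyp26b1 gave ratios of 0.473, 3.34 and 0.683 in hyperoxia and 0.128, 0.0922 and 0.229 in room air. In hyperoxia 2 alone the synthesis gene exceeded the breakdown gene. The order of the 9 genes by mean CPM per kb in hyperoxia was Rarg (34.6 ± 4.19), Rara (28.6 ± 4.24), Aldh1a1 (10.3 ± 5.21), Cyp26b1 (10.3 ± 4.77), Rdh10 (4.03 ± 0.699), Aldh1a2, Rarb, Aldh1a3 and Crabp2. In room air it was Rara (41.6 ± 6.34), Rarg (41.4 ± 5.46), Cyp26b1 (20.3 ± 5.09), Aldh1a1 (2.82 ± 0.648), Rdh10 (2.73 ± 0.498), Aldh1a2, Rarb, Aldh1a3 and Crabp2 (SD, n = 3). The neighbours whose ranges overlapped in hyperoxia were Rarg with Rara, Aldh1a1 with Cyp26b1, Aldh1a2 with Rarb, and Aldh1a3 with Crabp2. In room air they were Rara with Rarg, Aldh1a1 with Rdh10, Aldh1a2 with Rarb, and Aldh1a3 with Crabp2. By these means Aldh1a1 was level with Rdh10 in room air and with Cyp26b1 in hyperoxia. The level means in hyperoxia hinge on hyperoxia 2, with 16.3 CPM per kb of Aldh1a1 and 4.89 of Cyp26b1. In hyperoxia 1 and 3 Aldh1a1, at 6.63 and 8.1 CPM per kb, stayed below Cyp26b1, at 14 and 11.9, as in room air.

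Counted by groups that did not overlap, 2 of the 8 tested genes were higher in hyperoxia (Aldh1a1 and Rdh10) and 2 were lower (Cyp26b1 and Rara). Over all genes tested, 16.5% were higher and 14.4% lower by that rule, and counts out of 8 genes are too small to be set apart from these shares. Their median log2 fold change was 0.21, and that of all genes tested was -0.01.

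Some markers of other cells also differed between the groups, most clearly those of alveolar type 1 cells, and their part in the results was not tested. The 9 alveolar type 1 markers summed to 5853, 7746 and 6016 CPM in hyperoxia and 2380, 2724 and 3376 CPM in room air, and all 9 were called higher. Hyperoxia 2 was the highest library for this list, as it was for Aldh1a1. Relative to the list, Aldh1a1 stood at 5.59, 10.4 and 6.65 CPM per 1000 CPM in hyperoxia and at 5.26, 4.29 and 5.21 CPM per 1000 CPM in room air. On that footing the groups still did not overlap, but hyperoxia 1 came close to room air. Rdh10 turned round on the same footing, with 2.32, 2.49 and 2.89 CPM per 1000 CPM of the alveolar type 1 list in hyperoxia, against 3.81, 4.8 and 3.55 in room air. Per 1000 CPM of the pan-endothelial list it was at 0.819, 1.59 and 1.12 CPM in hyperoxia and 0.456, 0.679 and 0.828 CPM in room air, and the groups overlapped.

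The 10 club and ciliated markers, from the airway epithelium, summed to 1045 to 1519 CPM in hyperoxia and 583 to 874 CPM in room air, with 2 called higher (Sec14l3 and Tppp3) and 8 not called. Sec14l3 was the largest part of the hyperoxia sums, with 507, 743 and 516 CPM, against 131, 163 and 198 CPM in room air. The median log2 fold change of the list was 0.11. Scgb1a1, the club cell secretory gene, was not called (adjusted p = 0.756), with 157, 312 and 144 CPM in hyperoxia and 127, 136 and 266 CPM in room air. Of the 12 macrophage and monocyte markers, 3 were called higher and 1 lower, and their sum was 887 to 1093 CPM in hyperoxia and 980 to 1660 CPM in room air. The groups overlapped in that sum, and the median log2 fold change of the list was 0.16, so the list did not move one way. The 8 mesothelial markers did not move one way. Msln and Krt19 were called higher and make up most of the list's sum, but the median log2 fold change of the list was -0.11. Lrrn4 and Upk3b had log2 fold changes of -1.66 and -0.95 and were not called by edgeR (adjusted p = 0.121 and 0.117), while DESeq2 called both lower. Muc16 was at -0.78 (adjusted p = 0.461) and Upk1b at -0.26 (adjusted p = 0.677). Wt1, a defining mesothelial gene, was at 0.121 to 1.04 CPM in hyperoxia and 0.357 to 0.75 CPM in room air. No gene of these 4 lists was at 0 in all libraries.

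The pan-endothelial sum bears on the receptors and on Cyp26b1 in the same way. Rara stood at 8.21, 8.53 and 8.66 CPM per 1000 CPM of the pan-endothelial list in hyperoxia and at 9.76, 10.5 and 10.4 in room air. On this footing hyperoxia 2 lay between the other hyperoxia libraries, and the groups did not overlap. Rarg, in contrast, was at 9.93, 10.7 and 9.51 CPM per 1000 CPM in hyperoxia and 9.45, 9.96 and 10.4 in room air, and the groups overlapped. For Cyp26b1 the values were 4.52, 2.16 and 4.09 CPM per 1000 CPM in hyperoxia and 5.33, 7.13 and 5.75 in room air, again without overlap. Of the 14 pan-endothelial markers, 1 was called lower and 13 were not called.

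Lists for kinds of endothelial cell moved as well, in different directions, and their part in the results was not tested. Of 12 general capillary markers, 5 were called lower and 7 were not called, with a sum of 5738 to 7841 CPM in hyperoxia and 6919 to 9458 CPM in room air. Of 12 arterial markers, 4 were called lower and 1 higher, and their sum was 3670.1 to 4079 CPM in hyperoxia and 4145 to 5879.9 CPM in room air. Among 14 aerocyte markers, the genes of the large capillary cells of gas exchange, 6 were called higher and 1 lower, with a sum of 6566 to 7187 CPM in hyperoxia and 4769 to 5622 CPM in room air. Of 8 lymphatic markers 3 were called higher, 1 of them (Pdpn) shared with the alveolar type 1 list, and of 12 venous markers 4 were called higher.

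**Figure D3:**
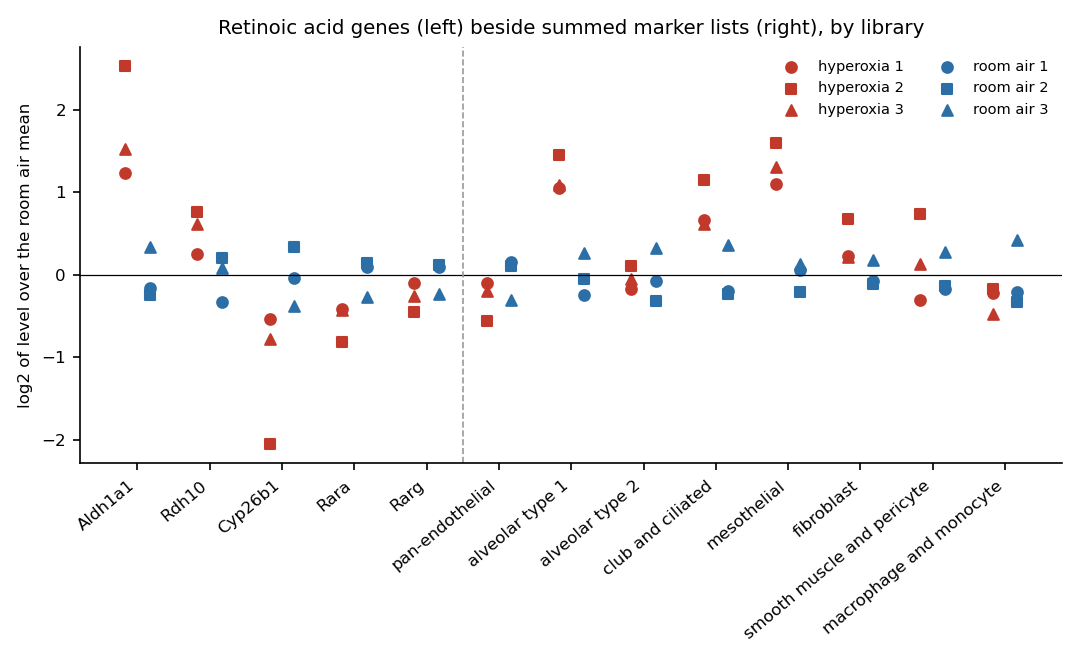
Levels of 5 retinoic acid genes (left of the dashed line) and summed levels of 8 marker lists (right), as log2 of each library's value over the room air mean (vertical axis), hyperoxia in red and room air in blue. Hyperoxia 2, the red square, is the highest library for Aldh1a1 and Rdh10. It is also the highest for the alveolar type 1, club and ciliated, mesothelial, fibroblast, and smooth muscle and pericyte lists. It is the lowest for Cyp26b1, Rara, Rarg and the pan-endothelial list.

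The wider retinoid pathway was read from 73 further genes, of which 55 had enough counts. Of these, 4 were called higher, 1 lower and 50 were not called, and the median log2 fold change was -0.00. DESeq2 called 5 higher and 5 lower of these genes, and 1527 higher and 1243 lower over all genes. The edgeR counts, like those of the 9 genes, are to be read against edgeR's 6.77% higher and 4.41% lower over all genes.

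Among 13 genes of retinol uptake, storage and carriage, 9 were tested and 0 called by edgeR. At an unadjusted p below 0.05 there were 2, DESeq2 called 1 (Lpl) and limma-voom 0. Over all genes limma-voom called 1871. The share of all genes at an unadjusted p below 0.05 was not computed. Such counts, here and in the lists below, therefore cannot be set against a base. Lpl, a lipase gene that also helps cells take up retinyl esters, had 121, 144 and 117 CPM in hyperoxia and 80.0, 105 and 100.5 CPM in room air, without overlap (log2 fold change 0.42, SE 0.13, adjusted p = 0.0673). Lrp1, a lipoprotein receptor gene, had a log2 fold change of 0.51 (SE 0.19, adjusted p = 0.127). Stra6, the retinol importer gene, averaged 3.19 ± 1.08 CPM in hyperoxia and 3.27 ± 1.51 CPM in room air, and was not called. Lrat, the enzyme gene that stores retinol as esters, was too low to test.

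Of 21 genes that interconvert retinol and retinal, 13 were tested, 1 was called higher and 12 were not called. At an unadjusted p below 0.05 there were 3, DESeq2 called 2 and limma-voom 1. The second gene that DESeq2 called was Rdh5, a retinol dehydrogenase gene known from the eye, with 12, 14 and 18 counts in hyperoxia and 41, 56 and 49 counts in room air. Its groups did not overlap, and it was not called by edgeR (log2 fold change -1.71, SE 0.53, adjusted p = 0.066). Of the Rdh5 exon bases, 25.6% overlap Bloc1s1 on the same strand, so its level is uncertain. The one called by edgeR was Akr1b8, an aldo-keto reductase gene whose human relative AKR1B10 reduces retinal. It had 20.5, 33.7 and 25.3 CPM in hyperoxia, against 3.87, 2.78 and 4.32 CPM in room air (log2 fold change 2.85, SE 0.23, adjusted p = 0.000102). Dhrs3, the gene of the reductase that returns retinal to retinol and works with RDH10, was not called. It had 137, 128 and 134 CPM in hyperoxia and 128, 120.4 and 114 CPM in room air (log2 fold change 0.14, SE 0.10, adjusted p = 0.439; 95% limits -0.08 to 0.36). Adh5, an alcohol dehydrogenase gene, averaged 73.2 ± 6.66 CPM in hyperoxia and 73.3 ± 7.66 CPM in room air.

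The breakdown list held 4 genes besides Cyp26b1. Both that could be tested, the cytochrome P450 genes Cyp2s1 and Cyp4b1, were called higher, whereas the Cyp26b1 values were lower and not called. Whether either gene takes part in retinoic acid breakdown in these cells was not tested. Cyp2s1, whose human counterpart oxidises retinoic acid, had 21.9, 56 and 26.9 CPM in hyperoxia and 13.3, 12.7 and 15.3 CPM in room air (log2 fold change 1.34, SE 0.29, adjusted p = 0.0149). Like Aldh1a1, it was highest in hyperoxia 2. The Cyp2s1 call was lost without room air 1, 2 or 3 (adjusted p = 0.0597, 0.0714 and 0.0538), and without hyperoxia 2 the log2 fold change was 0.83. Cyp4b1, itself 1 of the 6 aerocyte markers called higher, had 486, 379 and 415 CPM in hyperoxia and 338, 309.9 and 259.6 CPM in room air (log2 fold change 0.50, SE 0.14, adjusted p = 0.0485). It was not called without hyperoxia 1 (adjusted p = 0.176), hyperoxia 3 (0.129), room air 1 (0.0603), room air 2 (0.121) or room air 3 (0.101), nor in 3 other alternatives.

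The partner receptors of the RARs showed no called change: 3 of 4 genes were tested and 0 were called by edgeR, DESeq2 or limma-voom, nor had any an unadjusted p below 0.05. Rxra averaged 145 ± 11.5 CPM in hyperoxia and 127 ± 22.2 CPM in room air, and Rxrb 83.6 ± 12 CPM in hyperoxia and 88.9 ± 14.8 CPM in room air. Of 12 corepressor and coactivator genes, all were tested and 0 were called by edgeR or limma-voom, 1 by DESeq2 (Kmt2d), and 2 had an unadjusted p below 0.05. The corepressor gene Ncor1 averaged 172 ± 10.4 CPM in hyperoxia and 172 ± 15.1 CPM in room air (95% limits of the log2 fold change -0.25 to 0.24).

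Genes known to respond to retinoic acid were mostly not called. Of 25 listed, 20 were tested, 1 was called higher, 1 lower and 18 were not called, with a median log2 fold change of -0.15 (-0.01 for all genes tested). DESeq2 called 4, Rarres1 higher and Hoxa5, Hoxa2 and Tbx3 lower. Hoxa2, a homeobox gene of hindbrain patterning, had 8.26, 2.57 and 5.36 CPM in hyperoxia and 9.87, 11.7 and 9.92 CPM in room air, without overlap (log2 fold change -0.96, SE 0.34, adjusted p = 0.101 in edgeR). Rarres1, first described as induced by a synthetic retinoid in human skin, had 4.43, 3.24 and 5.15 CPM in hyperoxia and 1.11, 1.99 and 1.38 CPM in room air (log2 fold change 1.52, SE 0.33, adjusted p = 0.015). Leaving out hyperoxia 3 (adjusted p = 0.0761) or room air 1 (0.0558) ended the call, as did a term for Y-linked reads (0.0819). Hoxa5, a homeobox gene that shapes the lung, had 136, 79.4 and 119 CPM in hyperoxia, against 229.8, 203 and 170.1 CPM in room air (log2 fold change -0.85, SE 0.19, adjusted p = 0.0154). It was not called without room air 1 (adjusted p = 0.0605) or room air 2 (0.0568). Relative to the pan-endothelial list Hoxa5 was at 8.18, 6.54 and 7.68 CPM per 1000 CPM in hyperoxia and 11.6, 10.5 and 11.8 in room air. Tbx3, a T-box transcription factor gene, and Tgm2, a transglutaminase gene, averaged 353 ± 51.4 and 263 ± 33.2 CPM in hyperoxia, against 484 ± 94 and 251 ± 52.6 CPM in room air, and were not called by edgeR (adjusted p = 0.113 and 0.841). Of the Tgm2 exon bases, 21.8% overlap other genes on the opposite strand.

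**Figure D4:**
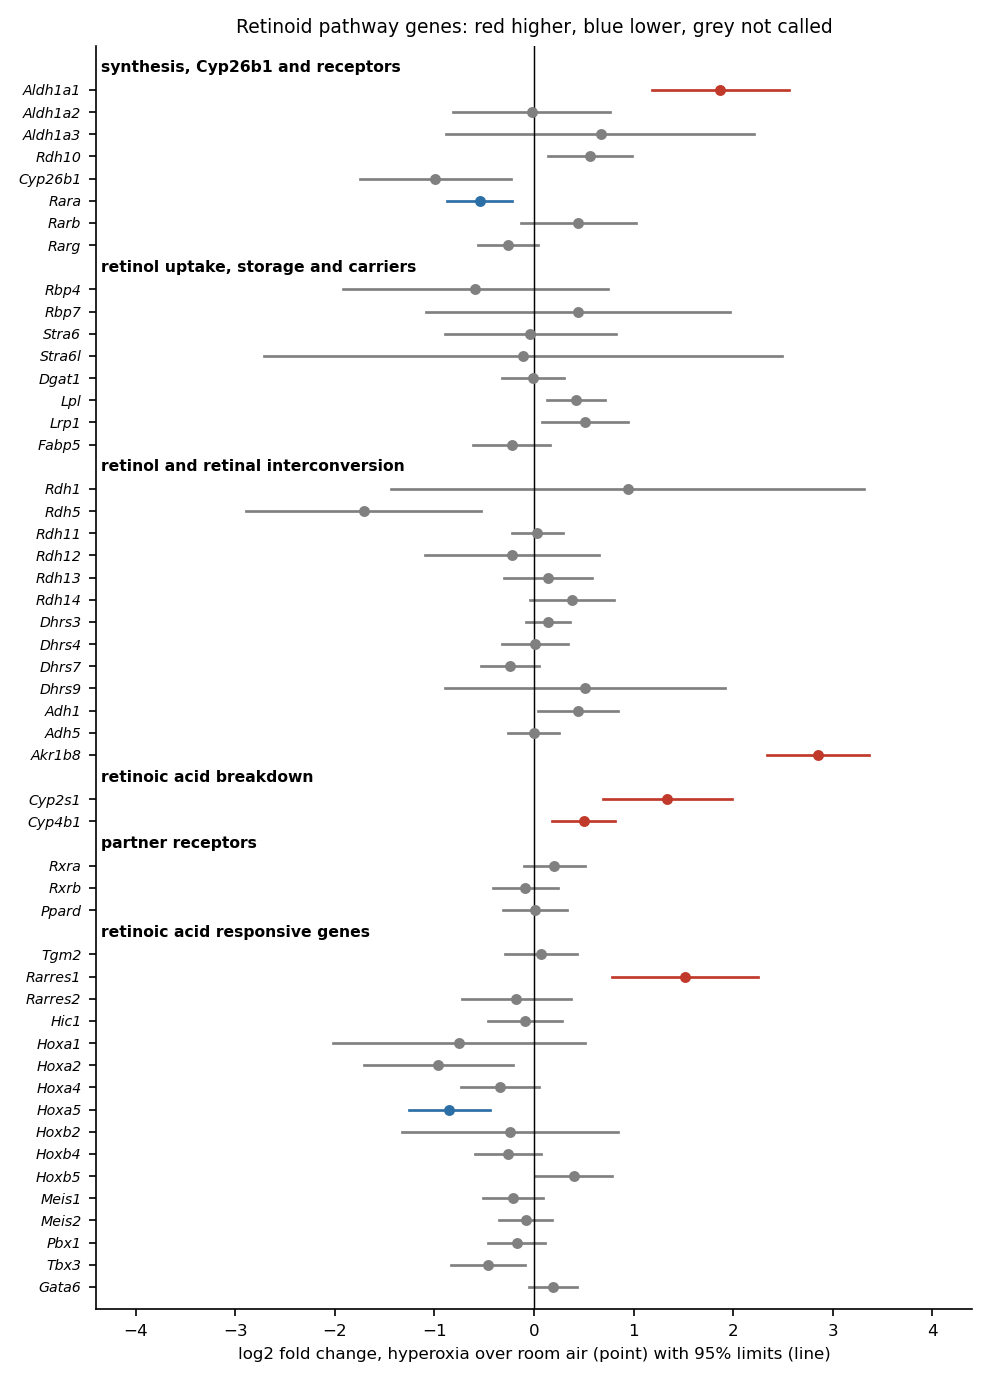
Log2 fold change of hyperoxia over room air (horizontal axis) with 95% limits for the 8 tested genes and for tested genes of 5 further retinoid lists, red where called higher, blue where called lower and grey where not called. A gene in 2 lists is drawn in the first, and the 12 corepressor and coactivator genes, none of them called by edgeR, are left out. Aldh1a1 and Akr1b8 stand well to the right of 0, and most other genes lie within 1 of it.

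The genes whose profile over the 6 libraries was most like that of a member were sought among 10847 tested genes with a standard name and a mean of at least 5 CPM. Likeness was the root mean square difference between log2 profiles, each centred on its own mean, and smaller is closer. Nearest to Aldh1a1 were Akr1c19, an aldo-keto reductase gene, and Ppp1r1b, a phosphatase inhibitor gene (0.16 each), followed by Liph, a lipase gene (0.19). All 3 were highest in hyperoxia 2. Akr1c19 had 5.52, 13.2 and 6.75 CPM in hyperoxia and 2.64, 2.12 and 3.74 CPM in room air.

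Nearest to Rara were Mex3d (0.033), which encodes an RNA-binding protein, the kinase gene Rps6ka2 (0.042) and Ets1 (0.045), an endothelial transcription factor gene. Ets1 had 636, 451 and 607 CPM in hyperoxia and 897, 907 and 722 CPM in room air (log2 fold change -0.58, SE 0.16, adjusted p = 0.045). Nearest to Rdh10 were the kinase gene Csnk1g1 (0.059), Sned1 (0.068) and Btg2 (0.068), a growth-restraining gene. Btg2 had 519.5 to 719 CPM in hyperoxia and 365 to 475 CPM in room air. Such likeness describes 6 libraries in 2 groups and says nothing of shared control.

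**Figure D5:**
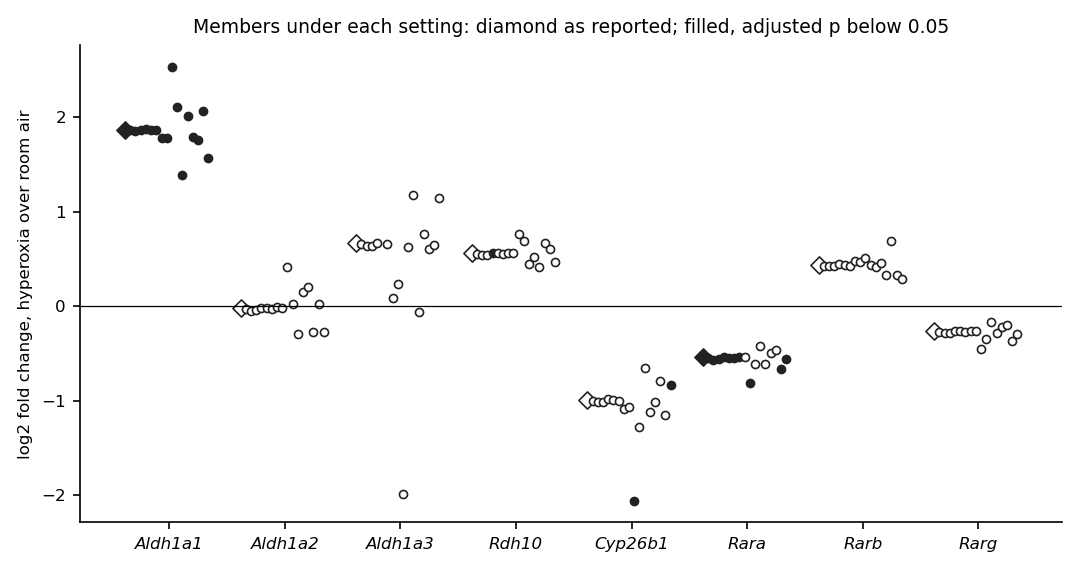
Log2 fold change of hyperoxia over room air (vertical axis) for the 8 tested genes under the reported setting (diamond) and each alternative (circles), filled where the adjusted p was below 0.05. Aldh1a1 is filled throughout, Rara in the reported setting and 10 of 16 alternatives, Cyp26b1 in 2 and Rdh10 in 1.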

How the data were processed

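The deposited values are raw counts per Ensembl gene ID, 1 column for each of the 6 libraries. The build GRCm39 is named in the submitters' processing notes, as are the tools DESeq2, featureCounts, Subread 2.0.6 and HISAT2 2.2.1, with no role or order. How strand and multimapping reads were treated, and which annotation was counted, is not stated in the sources used here. Groups and replicate numbers came from the titles. Symbols matched 51948 of 56941 IDs by gene ID. The tools were edgeR 4.0.16, DESeq2 1.42.0 and limma 3.58.1 under R 4.3.3. Genes passing filterByExpr (minimum count 10, minimum total 15) numbered 17072; TMM factors ran from 0.975 to 1.04, and CPM use them, except the Y-linked CPM, which are per total count. The robust quasi-likelihood test compared hyperoxia with room air without covariates. It was also run on simulated counts, which had the same spread for every gene and no library that stood apart. That run therefore cannot show how the test behaves on these libraries. Each standard error was taken as the size of the log2 fold change divided by the root of its F statistic, so limits are approximate. Replicate pairs differed (chi-square per degree of freedom 15.2 to 120.0), so none was a duplicate. Exon lengths, exon overlap and shared 50-base stretches came from GENCODE M21, promoter sequences from RefSeq, both on GRCm38, for which no coordinates of counted reads are implied.

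The genes and lists were chosen with earlier results of these data known. Named are the 9 genes, every called gene of the other retinoid lists, the 2 uncalled ones per list with the highest mean CPM (not scaled by length; some genes are not reported here), and the 3 nearest profiles of the 3 genes with the lowest adjusted p; Stra6, Lrat, Kmt2d, Rdh5, Hoxa2, Scgb1a1 and the other markers named, Aldh1a7, Top2b and the genes of the last section were added after their values were seen. Alternatives were other scalings (upper quartile, DESeq2 size factors, none beyond library size), filters (none, or 1 CPM in 3 libraries), and the tests of DESeq2 and limma-voom. Others were a replicate block, Y-linked reads (above 1 CPM) as a term, thresholds of 0.01 and 0.1, and each library left out. A further alternative, chosen after the data were seen, left out hyperoxia 2 and room air 3 together.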

Additional observations from a re-analysis of the deposited data

How the results depend on the processing

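Among the 9 retinoic acid genes, edgeR called 2. The count was 1 with the replicate block and at a threshold of 0.01, 4 at a threshold of 0.1, and 1 to 2 with 1 library left out; the gene lost was Rara each time. Of the other retinoid genes, 5 were called, and 11 with no filter on low counts, 10 with DESeq2, 8 with Y-linked reads as a term, 1 at 0.01, 8 at 0.1 and 2 to 6 with 1 library left out. Over all genes 1909 were called, 789 at 0.01, and 1057 to 1844 with 1 library left out. That count also rose, to 2834 with no filter on low counts, 2770 with DESeq2, 2626 with Y-linked reads as a term and 2854 at 0.1. The cause of these moves was not tested. Aldh1a2 changed sign with the Y-linked term (log2 fold change 0.41) and ran from -0.30 to 0.20 with 1 library left out; Aldh1a3 went to -1.99 with that term and ran from -0.06 to 1.18. Both had at most 165 counts in any library, which limits what could be detected. Rdh10 was called with no filter on low counts (adjusted p = 0.0303). The scalings moved the median gene by at most 0.025 on the log2 scale. Replicate numbers did not pair the libraries: deviations from the group means correlated at 0.11, -0.039 and -0.09 across genes for numbers 1, 2 and 3, and only number 1 matched best with its own number. With the replicate block the adjusted p of Rara was 0.085 and that of Cyp4b1 0.0734, and 1395 genes were called.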

Other observations

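Among the listed retinoid genes too low to test, 3 had 0 counts in every hyperoxia library and a few in every room air library. They were picked out after their values were seen, and how many of all untested genes share this pattern was not counted. Genes detected numbered 22017, 19471 and 22011 in hyperoxia 1, 2 and 3, and 21784 to 23989 in room air. Crabp1, a relative of Crabp2 that also binds retinoic acid, had 0 counts in each hyperoxia library and 12, 8 and 4 counts in room air. Bco2, a carotenoid-cleaving enzyme gene, had 0 counts in each hyperoxia library and 11, 4 and 8 counts in room air. Cyp26a1, a relative of Cyp26b1, had 0 counts in each hyperoxia library and 5, 4 and 2 counts in room air. A count of 0 allows up to 3 counts per library. The room air values of Cyp26a1, and the lowest of Crabp1 and Bco2, lie close to that floor.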
